A study of Danio rerio with 18 samples.

Results

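The kidneys of zebrafish raised without microbes were compared with those of conventionally raised fish from the same spawns at 7 days after fertilization. The comparison takes in 6 of the 18 libraries of the study, 3 germ-free (GF) and 3 conventional (CV), and all 32520 genes of the count table that holds them. Both groups are wild type fish of the AB strain from the same spawned eggs, whose parents mated in autoclaved water. GF eggs were held for hours in medium with antibiotics, rinsed in polyvinylpyrrolidone and hypochlorite, and grown in flasks of sterile medium. CV eggs went into plain embryo medium without these steps, so the lack of microbes and the exposure to antibiotics and disinfectants cannot be told apart. No measure of sterility was used here. The replicates carry numbers only, and nothing ties a number to a clutch, a tank or a set number of pooled fish. The p-values below therefore measure the spread between these libraries alone, which may be technical.

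The kidney of teleost fish filters blood and also takes the place of mammalian bone marrow, with blood-forming cells lodged between the tubules. Steroid-producing interrenal cells and catecholamine-producing chromaffin cells, the fish counterpart of the adrenal gland, lie in the same organ, along with endothelium that takes up waste molecules from blood. Microbes in the gut can set the basal activity of innate immune genes at a distance. Type I interferons, released by infected or stimulated cells, switch on a large set of antiviral genes in the cells that sense them. Glucocorticoids act through the receptor NR3C1, which raises a set of target genes that includes FKBP5 and KLF9.

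The libraries held between 27291597 and 30502058 counts, and the 10 most abundant genes took 14.6% to 16.8% of them. Each level is a CPM value, the count after every library is brought to 1 shared total with TMM factors of the 6 libraries, and levels are listed in the order of replicates 1, 2 and 3. CPM is not scaled for gene length, so levels are compared between libraries and not between genes. Kidney genes were present. CUBN, an endocytic receptor of the proximal tubule, had 103, 87.2 and 97.8 CPM in the GF libraries, against 71.8, 78.6 and 113 CPM in the CV libraries. The podocyte gene NPHS1 had 12.27, 10.5 and 11.1 CPM in the GF libraries, against 4.82, 11.6 and 9.77 CPM in the CV libraries, whereas SLC12A3, a salt transporter of the distal tubule, stayed at or below 3.11 CPM in every library. The dissected tissue also held RNA of its neighbours. Skeletal muscle markers summed to 110344 to 172848 CPM over the 6 libraries, exocrine pancreas markers to 54529 to 116544 CPM, liver markers to 14781 to 33143 CPM and skin markers to 7786 to 26595 CPM. Kidney tubule markers summed to 1647 to 2122 CPM.

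One library in each group stood apart. CV replicate 1 was at least 4-fold above all 5 other libraries in 236 of 21120 tested genes and at least 4-fold below them in 51. These counts ran from 0 to 34 and from 8 to 117 in the other libraries, the highest of both in GF replicate 2. In CV replicate 1 the macrophage markers lay 1.05 above their mean over the 6 libraries on the log2 scale, antigen presentation genes 1.54 and inflammation genes 0.99, whereas matrix genes lay at −0.96 and interrenal genes at −0.83. The immune metabolic gene irg1l, for example, was at 378 CPM there and at no more than 6.81 CPM elsewhere. The surface keratin krt4 was at 718 CPM there and at 4327 CPM or more elsewhere. The library labelled GF replicate 2 was nearer to chd8-/- replicate 2 of the same tissue (Spearman correlation across genes 0.980) than to GF replicates 1 and 3 (0.947 and 0.946), which correlated at 0.982 with each other. The library labelled chd8-/- replicate 1 was itself nearer to GF replicates 1 and 3 (0.968 and 0.967) and to CV replicate 3 (0.969) than to chd8-/- replicates 2 and 3 (0.949 and 0.940). CHD8 is the gene mutated in that other kidney group, and its levels are given with TMM factors over all 9 libraries. It was at 53.2, 31.4 and 53.2 CPM in the GF libraries and at 45.4 to 50.7 CPM in the CV libraries. The chd8-/- libraries had 28.2, 33.8 and 37.9 CPM. The level in the library labelled GF replicate 2 thus lay within the chd8-/- range, while chd8-/- replicate 1 held the least of all. Whether the label of GF replicate 2 is right was not tested, and every direction below that includes this library carries that limit. Most gene lists are given over all 6 libraries and again over 4, without CV replicate 1 and GF replicate 2. These 2 libraries were left out because they stood apart in these data, so calls over 4 libraries are no independent test. Many single genes are given in 1 fit only. A log2 fold change with an SE is over 6 libraries. A fold change beside an edgeR adjusted p and without an SE is over 4, unless 6 are named. Overlap between groups refers to all 6 libraries unless 4 are named.

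**Figure D1:**
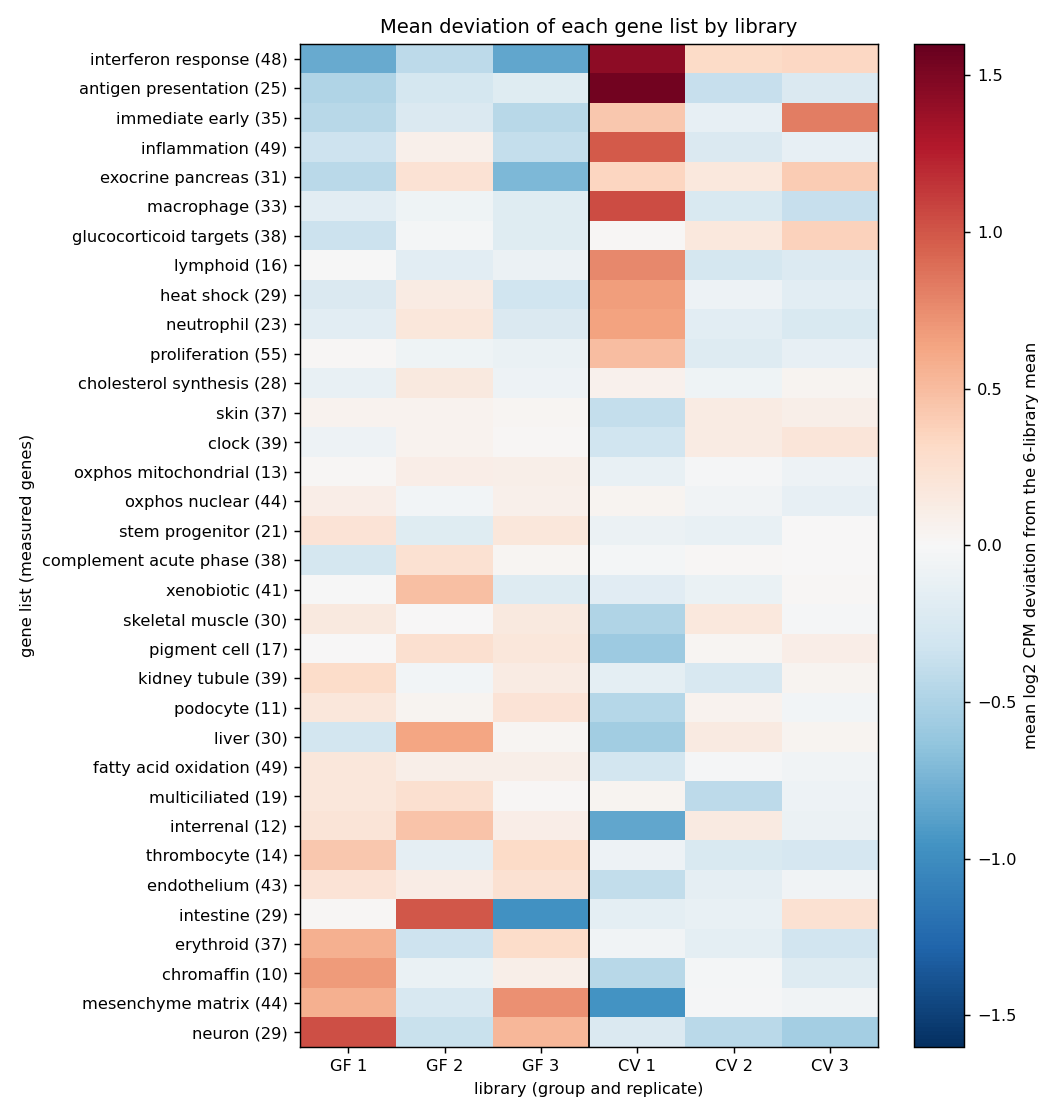
Mean log2 CPM deviation of each gene list from its mean over the 6 libraries (colour), by list (rows, number of measured genes in brackets, ordered by median log2 fold change) and library (columns, GF left of CV). CV replicate 1 stands out in the immune lists, and GF replicate 2 is highest in the intestine and liver lists (0.99 and 0.63). GF replicate 3 lies nearly as far below the mean in the intestine list (−0.97), and CV replicate 1 in the liver list (−0.56). The interferon list is below 0 in all 3 GF libraries and above 0 in all 3 CV libraries.

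Over 6 libraries no gene passed in edgeR's quasi-likelihood test at a Benjamini-Hochberg adjusted p under 0.05 (0.0% of 21120 tested). The smallest adjusted p was 0.298, for PALMD, and 1856 genes had an unadjusted p under 0.05 (8.79%, with 4.3% higher and 4.48% lower in GF). Limma voom also called 0 genes. DESeq2 called 176 genes (0.833%), 70 higher in GF (0.331%) and 106 lower (0.502%). These shares are over all 21120 genes, although DESeq2 gave no p for some of them. Among those without a p were MPEG1 (gene ENSDARG00000043093), b2m, irg1l and mxc, all far highest in CV replicate 1. All 3 GF values lay above all 3 CV values in 1561 genes (7.39%) and below them in 1663 (7.87%), together 15.3%. The fold change was above 0 in 51.4% of genes over 6 libraries and in 50.4% over 4. Over 4 libraries edgeR called 944 of 21309 genes (4.43%), with 529 higher in GF (2.48%) and 415 lower (1.95%), and DESeq2 called 1119 (5.25%), with 609 higher (2.86%) and 510 lower (2.39%). With library sizes in place of TMM factors this split became 997 higher (4.68%) and 229 lower (1.07%) among 1226 (5.75%), and the median over all genes shifted by 0.16 on the log2 scale. Within the 4 libraries the count was 304 without GF replicate 3, 328 without GF replicate 1, 1218 without CV replicate 2 and 1554 without CV replicate 3. Of the 944 genes, 929 were also tested over 6 libraries. Among these, 890 had the same direction there, 367 did not overlap between groups and 128 were also called by DESeq2 over 6. The 4 libraries are part of the 6, so these counts are no independent check of the calls. A change of at least 2-fold was reached by 327 of the 529 genes called higher and by 123 of the 415 called lower. Below, "called" without a further name means an edgeR adjusted p under 0.05 over 4 libraries.

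Genes of the interferon response were lower in GF kidneys in nearly every member measured. Of 48 such genes, 45 had a lower mean level in GF and 3 a higher one over 6 libraries, with a median log2 fold change of −1.51, beside a median of 0.013 over all genes tested. In 28 of the 48 all GF values lay below all CV values, beside 7.87% of all genes. DESeq2 called 14 lower over 6 libraries, beside 0.502%. Over 4 libraries the median was −0.81, 16 of 49 genes were called lower, beside 1.95% of all genes, and 0 higher. In bulk tissue, fewer cells of a type and less RNA per cell cannot be told apart, here or in any list below.

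The antiviral effectors led. RSAD2, whose product viperin makes a chain-terminating nucleotide that stops viral RNA synthesis, had 0.103, 0.146 and 0.465 CPM in the GF libraries, against 3.15, 5.46 and 5.7 CPM in the CV libraries. At most 0.465 CPM remained in any GF library, and the groups were far from overlapping. The log2 fold change over 6 libraries was −4.29 (SE 0.59, edgeR adjusted p = 0.347, DESeq2 adjusted p = 1.33e-09), and −4.27 over 4 libraries (edgeR adjusted p = 0.000953). CMPK2, a mitochondrial kinase that supplies the substrate of viperin, had 0.205, 0 and 0.133 CPM in the GF libraries, against 2.51, 2.14 and 2.37 CPM in the CV libraries. It was called lower too (−3.71, edgeR adjusted p = 0.00559). The helicase gene helz2a had 0.957, 1.24 and 0.796 CPM in the GF libraries, against 15.7, 5.42 and 8.24 CPM in the CV libraries. All GF libraries sat near 1 CPM, with CV replicate 1 highest of all, and the difference of −3.29 (SE 0.45) was −2.96 over 4 libraries (edgeR adjusted p = 0.00094). Dynamin-like Mx GTPases, which trap viral particles, followed the same order. For mxb the values were 0.137, 0.22 and 0.133 CPM in the GF libraries, against 1.97, 1.21 and 1.63 CPM in the CV libraries, and for mxe they were 0.479, 1.02 and 0.133 CPM in the GF libraries, against 4.88, 4.89 and 3.49 CPM in the CV libraries. Both were called lower, at −3.36 and −3.77 (edgeR adjusted p = 0.0249 and 0.00263). The interferon-inducible gene ifi27.2 had 0.205, 1.1 and 0.266 CPM in the GF libraries, against 22.4, 4.89 and 5.5 CPM in the CV libraries. Its neighbour in name ifi27.1 had 1.23, 2.12 and 1.26 CPM in the GF libraries, against 9.22, 6.71 and 6.04 CPM in the CV libraries. Log2 fold changes over 4 libraries were −4.44 and −2.35 (edgeR adjusted p = 0.000296 and 0.00175), but reads of such near-identical family members may be split between copies. The ubiquitin-like modifier isg15 had 1.37, 4.39 and 1.73 CPM in the GF libraries, against 9.94, 7.71 and 6.44 CPM in the CV libraries, with GF replicate 2 the highest GF library and still below all CV libraries (−1.69, SE 0.45, and −2.19 over 4 libraries, edgeR adjusted p = 0.00203).

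**Figure D2:**
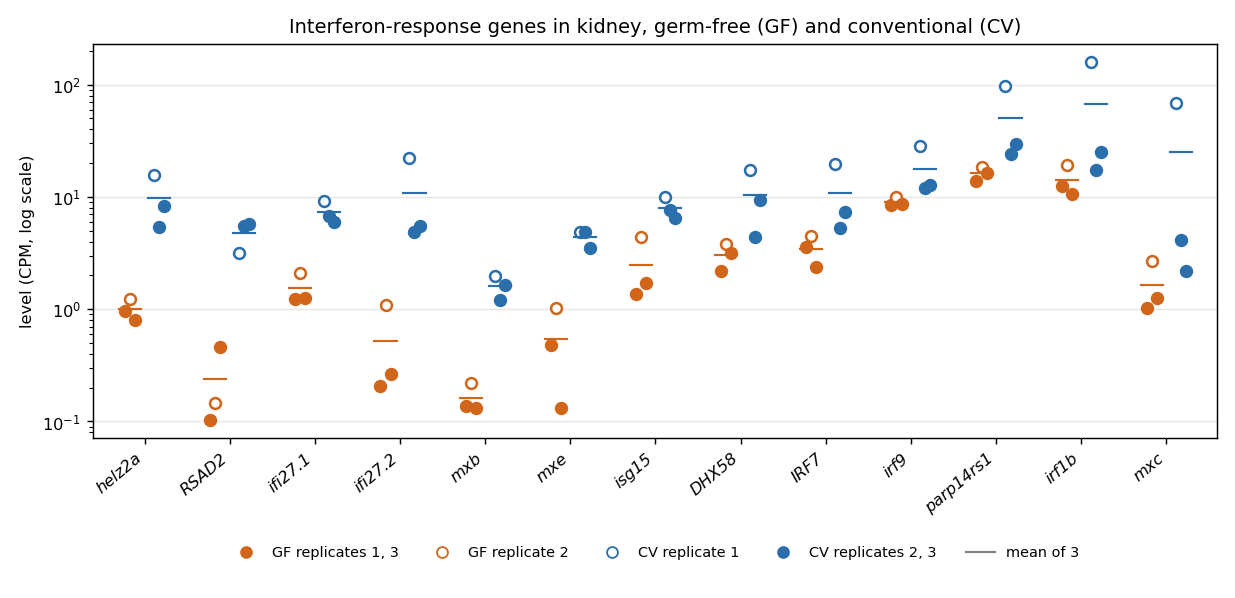
Level in CPM (log scale) of 13 interferon-response genes in each library, GF left of CV for each gene, with short lines at the group means. Open symbols are GF replicate 2 and CV replicate 1. In 11 of the genes the groups do not overlap, with RSAD2 at 0.465 CPM or less in GF and 3.15 CPM or more in CV, and for mxc and irf1b CV replicate 1 stands far above the rest and the groups overlap.

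Among the genes that carry the interferon signal, stat2 had 27, 36.5 and 27.31 CPM in the GF libraries, against 38, 38.5 and 37.8 CPM in the CV libraries, with every GF value below every CV value and a difference of −0.49 over 4 libraries (edgeR adjusted p = 0.0433). The gene irf9, whose product binds DNA together with that of stat2, had 8.48, 9.95 and 8.73 CPM in the GF libraries, against 28.4, 12.06 and 12.8 CPM in the CV libraries, and was not called (−0.53, edgeR adjusted p = 0.145). IRF7, which amplifies interferon production, had 3.56, 4.5 and 2.36 CPM in the GF libraries, against 19.8, 5.32 and 7.39 CPM in the CV libraries. Without CV replicate 1 and GF replicate 2 its difference of −1.64 became −1.11 (edgeR adjusted p = 0.0677), and it was not called. Among the cytosolic RNA sensors, DHX58 had 2.19, 3.81 and 3.19 CPM in the GF libraries, against 17.5, 4.35 and 9.43 CPM in the CV libraries, and IFIH1 had 5.09, 5.6 and 4.81 CPM in the GF libraries, against 9.8, 8.38 and 6.38 CPM in the CV libraries. Groups did not overlap for either sensor, and neither was called (−1.36 and −0.58, edgeR adjusted p = 0.070 and 0.233). The gene irf3, whose product starts interferon transcription downstream of these sensors, had 0.992, 2.85 and 1.76 CPM in the GF libraries, against 6.95, 4.28 and 3.83 CPM in the CV libraries and was called lower (−1.56, edgeR adjusted p = 0.0419).

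CV replicate 1 set the size of part of this list. The transcription factor gene irf1b had 12.6, 19.2 and 10.7 CPM in the GF libraries, against 159, 17.3 and 25.2 CPM in the CV libraries. Over 6 libraries the groups overlapped and the difference was −2.25 (SE 0.82), while over 4 libraries it was −0.87 and called lower (edgeR adjusted p = 0.0282). The Mx gene mxc had 1.03, 2.67 and 1.26 CPM in the GF libraries, against 69.1, 4.14 and 2.21 CPM in the CV libraries. Its difference of −3.93 became −1.47 over 4 libraries and was not called (edgeR adjusted p = 0.0892). RSAD2, ifi27.1, mxb and CMPK2, by contrast, had levels in CV replicates 2 and 3 of the same order as in CV replicate 1. A further interferon-inducible gene outside the list, ifi44a1, had 0, 0.22 and 0 CPM in the GF libraries, against 14.4, 0.999 and 1.49 CPM in the CV libraries, and was called lower (edgeR adjusted p = 0.00833). Both GF libraries of the 4-library fit had 0 counts, so no fold is given. The gene si:dkey-211g8.8, of unstated function, had 0 counts in all GF libraries, against 11.3, 2.39 and 1.49 CPM in the CV libraries. With a floor of 3 counts per library the GF level was at least 46.6-fold lower than the CV mean, or at least 17.9-fold lower than the mean of CV replicates 2 and 3.

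Antigen presentation genes were lower in 21 of 25 members over 6 libraries (median −1.02), with 7 not overlapping, beside 7.87% of all genes. The median was −0.31 over 4 libraries, where 14 of 24 members were lower and 10 higher. The list mean was 1.54 above the 6-library mean in CV replicate 1 on the log2 scale. It was −0.36 and −0.23 in CV replicates 2 and 3, among the −0.48, −0.28 and −0.19 of GF replicates 1, 2 and 3. Over 4 libraries 1 gene of 24 was called lower, a share near the 1.95% of all genes. The called gene was PSME1, a subunit of the PA28 cap that makes proteasomes release more peptides for presentation, with 9.03, 11.9 and 10.1 CPM in the GF libraries, against 67.4, 17.1 and 15.1 CPM in the CV libraries (−1.69, SE 0.56, and −0.75 over 4 libraries, edgeR adjusted p = 0.0354). For b2m, the light chain of class I molecules, the values were 4.44, 3.48 and 4.38 CPM in the GF libraries, against 77.9, 7.96 and 6.75 CPM in the CV libraries. GF values lay between 3 and 5 CPM, and CV replicate 1 lay far above the other CV libraries. Its difference of −2.91 thus became −0.74 and was not called (edgeR adjusted p = 0.12). The class I heavy chain gene mhc1zba had 92, 33.8 and 111 CPM in the GF libraries, against 369.9, 138 and 138 CPM in the CV libraries (−0.45, edgeR adjusted p = 0.0667, not called).

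Inflammation genes were also highest in CV replicate 1. Over 6 libraries 40 of 49 were lower in GF (median −0.49), and over 4 libraries the median was −0.26, with 1 gene called higher and 2 called lower, beside 2.48% and 1.95% of all genes. The gene called higher was caspb, an inflammasome caspase gene, with 11.2, 19.6 and 10.8 CPM in the GF libraries, against 32.1, 6.28 and 5.8 CPM in the CV libraries (−0.094 over 6 and 0.86 over 4 libraries, edgeR adjusted p = 0.0369). CV replicate 1 held the most of it, and the direction differed between the fits. The genes called lower were CEBPD, given below, and nfkbiab, the NF-kB inhibitor that NF-kB itself induces, with 47.5, 56.5 and 56.5 CPM in the GF libraries, against 162, 74.7 and 81.1 CPM in the CV libraries (−0.59, edgeR adjusted p = 0.0225). The NF-kB subunit gene REL had 15.4, 10.4 and 14.1 CPM in the GF libraries, against 36.8, 17.1 and 21.7 CPM in the CV libraries, with no overlap and no call (−0.92, SE 0.30, and −0.40, edgeR adjusted p = 0.228). The cytokine il1b had 1.85, 9.11 and 0.597 CPM in the GF libraries, against 11.4, 2.35 and 1.53 CPM in the CV libraries. High values occurred in 1 library of each group, and the difference was −0.40 (SE 1.03). The acute phase gene SAA2, which microbes raise in the zebrafish gut, stayed at or below 1.15 CPM in all 6 libraries. Hepcidin (hamp), the hormone that blocks iron release, had 3.86, 6.4 and 9.56 CPM in the GF libraries, against 24.4, 11.6 and 15.9 CPM in the CV libraries. Its groups did not overlap (−1.39, SE 0.39), and it was not called (−1.03, edgeR adjusted p = 0.263).

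Leukocyte markers gave no single direction. Macrophage markers were lower in 24 of 33 over 6 libraries (median −0.40) and higher in 20 of 33 over 4 (median 0.20). MPEG1 (gene ENSDARG00000043093), a pore-forming protein of macrophages, had 16.8, 25.4 and 17.1 CPM in the GF libraries, against 294, 37.6 and 31.3 CPM in the CV libraries. Its GF levels lay below all CV levels, and it was called lower (−1.03, edgeR adjusted p = 0.00209). Another gene with the same symbol, ENSDARG00000055290, had 14.8, 13.9 and 12.5 CPM in the GF libraries, against 45.3, 9.53 and 10.31 CPM in the CV libraries. Its groups overlapped, its difference of −0.66 (SE 0.57) over 6 libraries became 0.46 over 4, and it was not called (edgeR adjusted p = 0.203). The lysosomal macrophage gene cd68 had 77.1, 69.6 and 82.4 CPM in the GF libraries, against 354, 112 and 104 CPM in the CV libraries (−0.44, edgeR adjusted p = 0.0514, not called). The myeloid transcription factor gene SPI1 had 16.3, 11.9 and 12.9 CPM in the GF libraries, against 31.2, 10.8 and 9.7 CPM in the CV libraries, with a difference of −0.33 over 6 and 0.51 over 4 libraries. NCF1, a subunit of the phagocyte oxidase, had 7.69, 8.34 and 8.6 CPM in the GF libraries, against 35.2, 11.7 and 9.7 CPM in the CV libraries (−0.40, edgeR adjusted p = 0.329, not called). Neutrophil markers had a median of −0.11 over 6 and 0.035 over 4 libraries, and lymphoid markers of −0.30 and 0.23. Within the lymphoid list RAG1, which cuts receptor genes in developing lymphocytes, had 6.56, 1.98 and 3.58 CPM in the GF libraries, against 2.92, 0.856 and 0.373 CPM in the CV libraries. GF replicates 1 and 3 held the most, and the gene was called higher over 4 libraries (3.04, edgeR adjusted p = 0.0043), though CV replicate 1 exceeded GF replicate 2.

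Glucocorticoid target genes were lower in GF kidneys with little effect of either outlying library on the leading genes. FKBP5, the co-chaperone that restrains the glucocorticoid receptor and is among its most sensitive targets, had 47.8, 70.8 and 48 CPM in the GF libraries, against 156, 152 and 148 CPM in the CV libraries. Values in the 3 CV libraries were nearly equal, and the highest GF value was 70.8 CPM. The log2 fold change over 6 libraries was −1.45 (SE 0.20, edgeR adjusted p = 0.347, DESeq2 adjusted p = 6.25e-07), and −1.65 over 4 libraries (edgeR adjusted p = 3.99e-05). KLF9, a transcription factor induced by glucocorticoids and thyroid hormone, had 62.8, 87.9 and 78.5 CPM in the GF libraries, against 183, 169 and 176 CPM in the CV libraries, again with even CV values and no overlap (−1.21, SE 0.18, and −1.29 over 4 libraries, edgeR adjusted p = 0.000316). The means were 55.5 ± 13.2 CPM in GF and 152 ± 4.37 CPM in CV libraries (SD, n = 3 each) for FKBP5 and 76.4 ± 12.7 CPM in GF and 176 ± 7.07 CPM in CV libraries (SD, n = 3 each) for KLF9.

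Over the whole list 30 of 38 targets were lower over 6 libraries (median −0.38, 9 without overlap, beside 7.87% of all genes). The other 8 were higher, 2 of them without overlap, beside 7.39% of all genes. Over 4 libraries the median was −0.55, with 15 called lower, beside 1.95% of all genes, and 0 higher. The members named next are linked to several known actions of the hormone, but whether the hormone set their levels was not tested. Skeletal muscle RNA was part of the dissected tissue, and its part in the muscle genes was not tested either. FBXO32, DDIT4, PCK1 and LPIN1 were chosen after their values were seen. Muscle protein breakdown is represented by trim63a, a ubiquitin ligase gene, with 109, 128 and 131 CPM in the GF libraries, against 246, 230.1 and 176 CPM in the CV libraries (−0.76, edgeR adjusted p = 0.0144), and by FBXO32, with 85.2, 133 and 97.3 CPM in the GF libraries, against 166, 157 and 127 CPM in the CV libraries. GF replicate 2 exceeded CV replicate 3 for FBXO32, which was called over 4 libraries (−0.64, edgeR adjusted p = 0.0208). Growth restraint through mTORC1 is represented by DDIT4, with 61.7, 44 and 84.6 CPM in the GF libraries, against 171, 118 and 119.5 CPM in the CV libraries, without overlap (−0.70, edgeR adjusted p = 0.0181). Glucose production is represented by PCK1, with 103, 327 and 135 CPM in the GF libraries, against 289, 399.8 and 564 CPM in the CV libraries. GF replicate 2 lay within the CV range there, so the groups overlapped over 6 libraries (−1.15, SE 0.44) and not over 4 (−2.02, edgeR adjusted p = 0.000648). The transcription factor gene CEBPD had 205, 267 and 247 CPM in the GF libraries, against 411, 359.9 and 489 CPM in the CV libraries, without overlap (−0.91, edgeR adjusted p = 0.00747). LPIN1, a phosphatase of lipid synthesis, had 424, 561 and 446 CPM in the GF libraries, against 516, 744 and 681 CPM in the CV libraries, with GF replicate 2 above CV replicate 1 (−0.71, edgeR adjusted p = 0.00628).

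The receptor gene and the markers of steroid-producing cells gave no call. NR3C1 had 80.5, 83.3 and 93.8 CPM in the GF libraries, against 74.8, 87.9 and 84.2 CPM in the CV libraries, values that overlap widely. Its difference was 0.062 over 6 libraries (SE 0.15, edgeR adjusted p = 0.916) and 0.016 over 4 libraries (edgeR adjusted p = 0.968). Interrenal markers were higher in 11 of 12 over 6 libraries, with a median of 0.42 that became 0.16 over 4, and no member was called. STAR, which carries cholesterol into mitochondria for steroid synthesis, had 96.8, 95.2 and 78.5 CPM in the GF libraries, against 41, 74.6 and 52.9 CPM in the CV libraries (0.46 over 4 libraries, edgeR adjusted p = 0.184). The steroid 21-hydroxylase gene cyp21a2 had 21.1, 26.8 and 17.9 CPM in the GF libraries, against 8.99, 15.2 and 11 CPM in the CV libraries (0.58, edgeR adjusted p = 0.117). For both genes all GF values exceeded all CV values and CV replicate 1 was the lowest library.

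Within the clock list 8 of 39 genes were called lower, beside 1.95% of all genes, and 1 higher, beside 2.48%, over 4 libraries. Over 6 libraries 4 of 39 lay lower without overlap, a share near the 7.87% of all genes. A pair of REV-ERB genes, whose products repress the activating arm of the circadian oscillator, led. NR1D1 had 185, 174 and 209 CPM in the GF libraries, against 385, 318 and 343 CPM in the CV libraries. The gene nr1d2a had 67.5, 75.8 and 87.7 CPM in the GF libraries, against 195, 136 and 161 CPM in the CV libraries. CV replicate 1 was the highest library for both, the groups did not overlap, and both were called lower (−0.75 and −0.94 over 4 libraries, edgeR adjusted p = 0.00463 and 0.00366). The light- and clock-driven period genes gave another order. PER1 (gene ENSDARG00000012499), which is also a glucocorticoid target, had 129, 171 and 143 CPM in the GF libraries, against 13, 216 and 227 CPM in the CV libraries. PER3 had 180.0, 466 and 154 CPM in the GF libraries, against 34.3, 258 and 302 CPM in the CV libraries. CV replicate 1 held by far the least of both, and the library labelled GF replicate 2 the most PER3. This left PER1 at −0.04 (SE 0.81) over 6 libraries and at −0.70 over 4 (edgeR adjusted p = 0.00544). Another gene with the PER1 symbol, ENSDARG00000056885, had 109, 99.7 and 120 CPM in the GF libraries, against 40.8, 155 and 150 CPM in the CV libraries. It was at −0.076 over 6 libraries and at −0.42 over 4, and was not called (edgeR adjusted p = 0.0648). PER3 was 0.43 over 6 libraries (SE 0.75), higher in GF, and −0.75 over 4, where it was called lower (edgeR adjusted p = 0.00746). BHLHE40, a repressor of the same oscillator, had 155, 239.9 and 176 CPM in the GF libraries, against 87.3, 249 and 259.8 CPM in the CV libraries, with CV replicate 1 again lowest (−0.064 over 6 and −0.63 over 4 libraries, edgeR adjusted p = 0.0114). The hour of collection of each library is not given in the sources used here, and its part in these values was not tested.

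**Figure D3:**
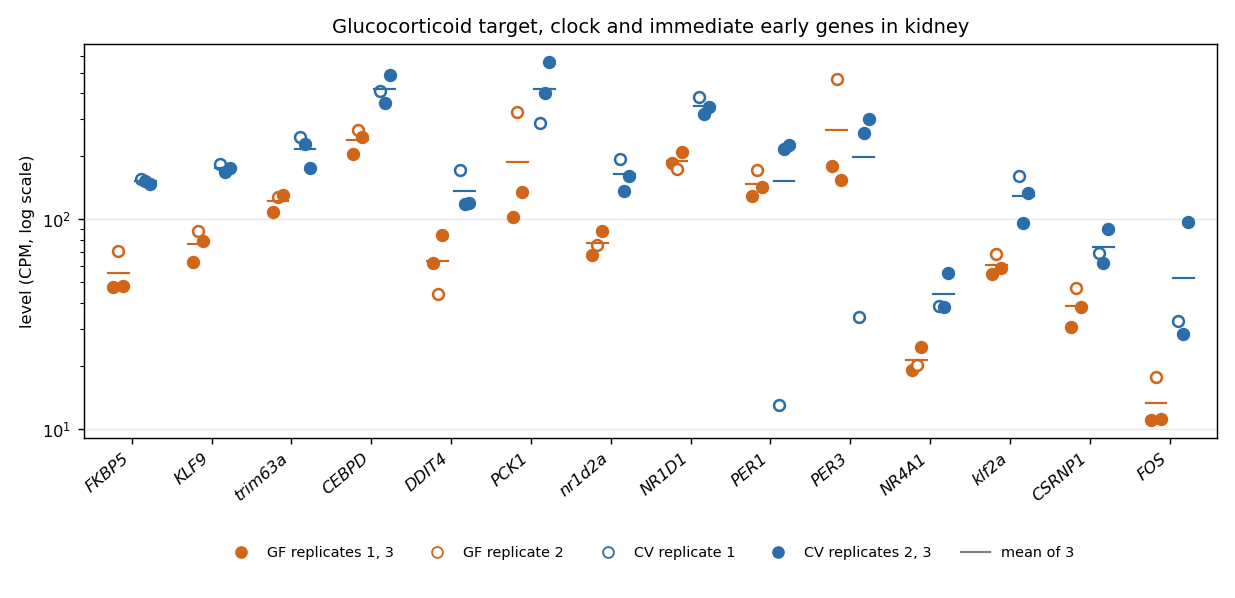
Level in CPM (log scale) of glucocorticoid target genes, clock genes and immediate early genes in each library, GF left of CV for each gene, with short lines at the group means and open symbols for GF replicate 2 and CV replicate 1. FKBP5, KLF9, NR1D1 and NR4A1 do not overlap between groups. PER1 (gene ENSDARG00000012499) is at 13 CPM in CV replicate 1 and at 129 CPM or more in every other library.

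Immediate early genes, which cells switch on within minutes of a stimulus, were lower in 32 of 35 members (median −0.73), with 14 not overlapping, beside 7.87% of all genes, and 8 called lower by DESeq2 over 6 libraries, beside 0.502%. The median was −0.76 over 4 libraries, with 4 called lower, beside 1.95% of all genes, and 1 higher, beside 2.48%. NR4A1, an orphan nuclear receptor, had 19.1, 20.2 and 24.7 CPM in the GF libraries, against 38.5, 38.4 and 55.2 CPM in the CV libraries (−1.1, edgeR adjusted p = 0.00995). The flow-responsive factor gene klf2a had 55.1, 68.4 and 58.7 CPM in the GF libraries, against 160.3, 96.1 and 133 CPM in the CV libraries (−1.01, edgeR adjusted p = 0.00337). CSRNP1, a nuclear factor gene, had 30.6, 46.9 and 38.2 CPM in the GF libraries, against 68.8, 62 and 89.8 CPM in the CV libraries (−1.14, edgeR adjusted p = 0.00791). In these 3 genes every GF value was below every CV value. FOS had 11, 17.6 and 11.1 CPM in the GF libraries, against 32.9, 28.4 and 96.7 CPM in the CV libraries, with CV replicate 3 about 3 times the other CV libraries, and was not called (−1.99, SE 0.48, and −2.5, edgeR adjusted p = 0.343). For egr1 the values were 72.8, 90.5 and 79.7 CPM in the GF libraries, against 106, 94.2 and 353 CPM in the CV libraries, with the same library far above the rest (−1.55, edgeR adjusted p = 0.528). The mean over the list was 0.81 above the 6-library mean in CV replicate 3 on the log2 scale and −0.13 in CV replicate 2, so part of the list rests on 1 library. For NR4A1, klf2a and CSRNP1 CV replicate 2 also lay above every GF library. The remaining called gene on the lower side was IER5, with 41, 59 and 48.9 CPM in the GF libraries, against 67.7, 60.6 and 71.1 CPM in the CV libraries (−0.55, edgeR adjusted p = 0.0359). One member went the other way. The other klf2 gene, klf2b, had 47, 35.8 and 43 CPM in the GF libraries, against 20.1, 29 and 33.9 CPM in the CV libraries (0.51, edgeR adjusted p = 0.0448), and was called higher. The heat shock gene hsp70l had 0.992, 1.54 and 1.16 CPM in the GF libraries, against 13.9, 1.93 and 1.49 CPM in the CV libraries, a difference that CV replicate 1 carried (−2.23, SE 0.84, and −0.67 over 4 libraries, edgeR adjusted p = 0.516).

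Endothelial genes were higher in GF kidneys, led by the receptors of scavenger endothelium. Of 43 endothelial markers 40 were higher over 6 libraries (median 0.43), and in 16 all GF values lay above all CV values, beside 7.39% of all genes. The median was 0.35 over 4 libraries, where 2 genes were called higher, a share near the 2.48% of all genes. Both called genes encode stabilins, receptors with which sinusoidal cells clear modified proteins and hyaluronan from blood. The gene stab1 had 58.5, 46.2 and 57.1 CPM in the GF libraries, against 25.6, 31.8 and 31.2 CPM in the CV libraries (0.87, SE 0.17, and 0.87 over 4 libraries, edgeR adjusted p = 0.00178). The gene stab2 had 26.6, 19.2 and 30.2 CPM in the GF libraries, against 14.3, 12.6 and 13.6 CPM in the CV libraries (0.91, SE 0.21, and 1.12, edgeR adjusted p = 0.0016). All GF values exceeded all CV values for both, and GF replicate 2 was the lowest GF library. The hyaluronan receptor gene lyve1b had 6.19, 6.29 and 5.74 CPM in the GF libraries, against 3.39, 3.25 and 3.66 CPM in the CV libraries, without overlap and without a call (0.78, edgeR adjusted p = 0.131). The lectin gene clec14a had 17.6, 19.1 and 18.4 CPM in the GF libraries, against 10.8, 11.2 and 13.2 CPM in the CV libraries (0.57, edgeR adjusted p = 0.0851). By contrast the VEGF receptor gene kdrl had 93.6, 92.8 and 88.4 CPM in the GF libraries, against 63.7, 82.9 and 90.8 CPM in the CV libraries, and its groups overlapped (0.21, SE 0.18).

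The mannose receptor genes, which both macrophages and scavenger endothelium express, were higher in GF, as the stabilins were. MRC1 had 29, 32.4 and 31.8 CPM in the GF libraries, against 14.6, 18.1 and 15.8 CPM in the CV libraries. The difference was 0.94 over 6 libraries (SE 0.16, edgeR adjusted p = 0.411, DESeq2 adjusted p = 0.000983) and 0.84 over 4 libraries (edgeR adjusted p = 0.00663). Its paralog mrc1b had 65.7, 51.6 and 57.6 CPM in the GF libraries, against 33.9, 32 and 26.7 CPM in the CV libraries (1.07, edgeR adjusted p = 0.00131). Both were in the macrophage list, where they were the 2 of 33 genes called higher, beside 2.48% of all genes. In that list 1 gene was called lower, beside 1.95% of all genes.

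Matrix genes were higher in 41 of 44 members (median 0.60, 9 without overlap, beside 7.39% of all genes), and 16 were called higher, beside 2.48% of all genes, and 0 lower over 4 libraries (median 0.56). The list lay at 0.56 and 0.73 from the 6-library mean in GF replicates 1 and 3 on the log2 scale, at −0.26 in GF replicate 2, at −0.96 in CV replicate 1 and near 0 in the other CV libraries. TGFBI, a matrix protein induced by TGF-beta, had 149, 102 and 157 CPM in the GF libraries, against 46, 65.6 and 51.5 CPM in the CV libraries (1.32, SE 0.23, and 1.38 over 4 libraries, edgeR adjusted p = 0.000296). Periostin (POSTN, gene ENSDARG00000104267) had 366, 307 and 369 CPM in the GF libraries, against 107, 247 and 220.3 CPM in the CV libraries (0.65, edgeR adjusted p = 0.00938). The proteoglycan gene LUM had 34, 30.6 and 39.4 CPM in the GF libraries, against 9.39, 23.6 and 22 CPM in the CV libraries (0.68, edgeR adjusted p = 0.0139). In all 3 genes the GF libraries lay above every CV library, with CV replicate 1 the lowest. Keratocan (KERA), a proteoglycan best known from cornea, had 7.32, 3.44 and 6.07 CPM in the GF libraries, against 0.61, 1.5 and 0.746 CPM in the CV libraries (2.57, edgeR adjusted p = 0.00242). KERA is not a member of the matrix list and was named by the size of its change and its p.

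The following genes were named by the size of their change, by their p or, for col9a1b, as a member of the matrix list, and they are not a group that was counted. The cartilage gene cnmd, which encodes chondromodulin, had 28.2, 11.2 and 30.1 CPM in the GF libraries, against 4.65, 9.67 and 6.04 CPM in the CV libraries (1.89, edgeR adjusted p = 0.000648). The cartilage collagen gene col9a1b had 20.3, 5.93 and 36.2 CPM in the GF libraries, against 2.88, 4.17 and 1.15 CPM in the CV libraries, without overlap but with a wide spread, and was not called (3.41, edgeR adjusted p = 0.185). The enamel and enameloid matrix gene enam had 13.8, 1.06 and 4.45 CPM in the GF libraries, against 0, 0.0713 and 0.271 CPM in the CV libraries. Mineralization gene scpp5 had 28.1, 3.33 and 26.3 CPM in the GF libraries, against 0.746, 0.214 and 0.95 CPM in the CV libraries. Both were called higher (5.68 and 5.52, edgeR adjusted p = 0.0203 and 0.0007), and in both GF replicate 2 held the least of the GF libraries. MMP11, a matrix metalloproteinase gene, had 5.54, 1.46 and 4.51 CPM in the GF libraries, against 0.441, 0.499 and 0.271 CPM in the CV libraries (3.69, edgeR adjusted p = 0.000898). How much neighbouring tissue each dissection carried was not measured directly, and its part in these values was not tested.

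The next 4 genes, all higher in GF, were named by their small p in edgeR over 6 libraries, a choice that itself favours tight values. PALMD, a paralemmin-like protein gene, had 9.74, 7.72 and 11.2 CPM in the GF libraries, against 2.17, 2.43 and 2.21 CPM in the CV libraries (2.08, SE 0.25, and 2.17 over 4 libraries, edgeR adjusted p = 0.000655). SRPX, a sushi-repeat protein gene, had 8.96, 12.6 and 10.2 CPM in the GF libraries, against 2.85, 3.5 and 3.63 CPM in the CV libraries (1.42, edgeR adjusted p = 0.00544). Clusterin (CLU), an extracellular chaperone, had 36.4, 34.3 and 41.5 CPM in the GF libraries, against 19.2, 18.6 and 18.9 CPM in the CV libraries (1.05, edgeR adjusted p = 0.00131). SEPTIN3 had 5.85, 6.11 and 5.54 CPM in the GF libraries, against 2.24, 2.25 and 2.04 CPM in the CV libraries (1.41, edgeR adjusted p = 0.0206). All 4 kept GF replicate 2 well above the highest CV library. The complement gene c7a, of the membrane attack complex, had 23.2, 16.4 and 27.08 CPM in the GF libraries, against 7.63, 10.7 and 10.8 CPM in the CV libraries (1.23, edgeR adjusted p = 0.00134). Its list, of complement and acute phase genes, had 25 of 38 members higher over 6 libraries (median 0.13). Over 4 libraries 14 were higher and 24 lower (median −0.25). There 1 was called higher, beside 2.48% of all genes, and 2 lower, beside 1.95%. The galectin gene lgals1l1 had 23.9, 71.1 and 28.8 CPM in the GF libraries, against 5.12, 16.6 and 10.6 CPM in the CV libraries, with GF replicate 2 highest (0.95, edgeR adjusted p = 0.0288). On the side of the genes lower in GF, igldcp had 0.41, 0.512 and 0.133 CPM in the GF libraries, against 3.05, 4.71 and 2.88 CPM in the CV libraries (−3.79, edgeR adjusted p = 0.00326).

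**Figure D4:**
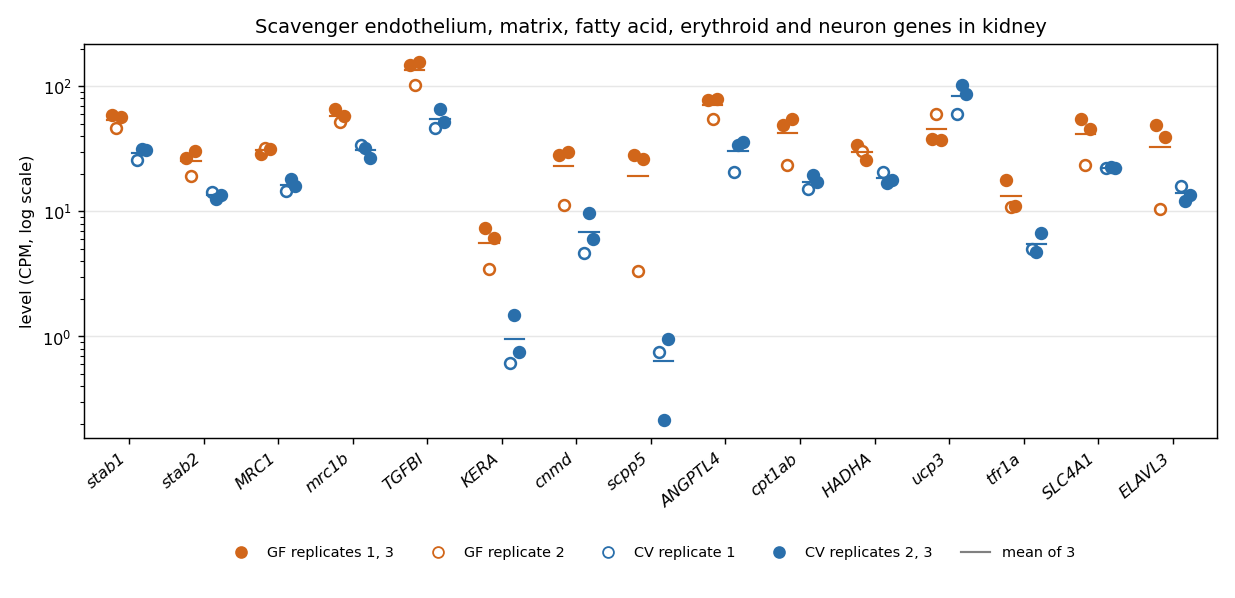
Level in CPM (log scale) of genes of scavenger endothelium, matrix and mineralized tissue, fatty acid use, red cells and neurons in each library, GF left of CV for each gene, with short lines at the group means and open symbols for GF replicate 2 and CV replicate 1. All 3 GF values exceed all 3 CV values for stab1, stab2, MRC1, mrc1b and ANGPTL4, whereas ELAVL3 in GF replicate 2 (10.5 CPM) lies below the CV libraries.

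Genes of fatty acid oxidation were higher in 37 of 49 members over 6 libraries (median 0.31, 13 without overlap, beside 7.39% of all genes). Over 4 libraries 11 were called higher, beside 2.48% of all genes, and 1 lower, beside 1.95%, although the median was only 0.13. ANGPTL4, the secreted inhibitor of lipoprotein lipase that microbes are known to suppress in the mouse and zebrafish gut, had 77.3, 55.2 and 79.7 CPM in the GF libraries, against 20.7, 34 and 36 CPM in the CV libraries, with no overlap (1.23, SE 0.25, and 1.17 over 4 libraries, edgeR adjusted p = 0.000316). Carnitine palmitoyltransferases, which admit long-chain fatty acids to mitochondria, were higher as well. The gene cpt1ab had 48.6, 23.5 and 55.1 CPM in the GF libraries, against 15.1, 19.6 and 17.2 CPM in the CV libraries (1.49, edgeR adjusted p = 0.000148). CPT1B had 35.2, 16 and 37 CPM in the GF libraries, against 9.7, 15.8 and 15.3 CPM in the CV libraries (1.22, edgeR adjusted p = 0.00058). For both, GF replicate 2 lay just above the highest CV library and the other GF libraries more than 2 times higher still. Enzymes of the oxidation spiral followed. HADHA had 33.9, 30.2 and 25.8 CPM in the GF libraries, against 20.5, 17 and 18 CPM in the CV libraries (0.77, edgeR adjusted p = 0.0184). ACADS, the short-chain acyl-CoA dehydrogenase, had 29.6, 19 and 26.2 CPM in the GF libraries, against 9.94, 15.7 and 16 CPM in the CV libraries (0.81, edgeR adjusted p = 0.00791). The nuclear receptor PPARA, which drives many of these genes, had 7.56, 5.78 and 6.6 CPM in the GF libraries, against 8.82, 11 and 11.2 CPM in the CV libraries, lower in GF without overlap and not called (−0.65, edgeR adjusted p = 0.101). The uncoupling protein gene ucp3 had 37.9, 60.5 and 37.4 CPM in the GF libraries, against 60.5, 103 and 87.2 CPM in the CV libraries and was the gene called lower (−1.34, edgeR adjusted p = 0.000199).

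Red cell genes were higher in 32 of 37 members over 6 libraries (median 0.46), and over 4 libraries 10 were called higher, beside 2.48% of all genes, and 0 lower (median 0.62). The transferrin receptor gene tfr1a, through which erythroblasts take up iron, had 17.8, 10.9 and 11.1 CPM in the GF libraries, against 5.02, 4.71 and 6.75 CPM in the CV libraries (1.33, edgeR adjusted p = 0.0173). SLC4A1 (gene ENSDARG00000012881), the band 3 anion exchanger, had 55.1, 23.6 and 45.5 CPM in the GF libraries, against 22.3, 22.6 and 22.1 CPM in the CV libraries (1.17, edgeR adjusted p = 0.000753). GF replicate 2 was barely above the CV libraries there. The erythroid transcription factor gene gata1a had 5.92, 1.68 and 6.5 CPM in the GF libraries, against 1.83, 2.39 and 2.75 CPM in the CV libraries, where GF replicate 2 was the lowest of all (1.27, edgeR adjusted p = 0.0255). The globin gene hbae3 had 634, 134 and 420.2 CPM in the GF libraries, against 349, 193 and 164 CPM in the CV libraries, with the same library lowest (1.56, edgeR adjusted p = 0.00366), and its near-identical copies may share reads. The calls of SLC4A1, gata1a and hbae3 thus rest on GF replicates 1 and 3. The list mean was 0.57, −0.34 and 0.29 in the GF libraries, against −0.06, −0.16 and −0.31 in the CV libraries, as log2 deviation from the 6-library mean.

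Markers of blood stem and progenitor cells had a median of 0.11 over 6 and 0.34 over 4 libraries, with no member called. LMO2, a bridging factor of the stem cell complex, had 8.31, 9.11 and 10.2 CPM in the GF libraries, against 6.1, 6.56 and 5.87 CPM in the CV libraries, without overlap (0.58, SE 0.20, and 0.57, edgeR adjusted p = 0.182). RUNX1, required for stem cells to emerge, stayed at or below 3.35 CPM in all 6 libraries. Thrombocyte markers were higher in 11 of 14 (median 0.42, and 0.58 over 4 libraries, with 1 called higher, beside 2.48% of all genes, gata1a, which the erythroid list also holds).

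Neuron markers, which are no part of the kidney proper, were higher in all 29 measured members over 6 libraries, with a median of 0.93 and 5 without overlap, beside 7.39% of all genes. Without the outlying libraries the median was 1.18 and 14 members were called higher, beside 2.48%. The neuronal tubulin gene tubb5 had 21.1, 5.93 and 17.5 CPM in the GF libraries, against 5.02, 5.78 and 4.51 CPM in the CV libraries (1.9, edgeR adjusted p = 0.000525). The neuronal RNA-binding gene ELAVL3 had 48.8, 10.5 and 39 CPM in the GF libraries, against 16, 12.20 and 13.6 CPM in the CV libraries (1.76, edgeR adjusted p = 0.000105). GF replicates 1 and 3 carried the difference, and GF replicate 2 was within or next to the CV values. Summed over the list, neuron markers came to 400.1, 139.5 and 319 CPM in the GF libraries, against 164, 158 and 151 CPM in the CV libraries. Chromaffin cells share much of their program with sympathetic neurons. Of 10 chromaffin markers 7 were higher and 3 lower over 4 libraries. Their secretory granule gene chga had 9.33, 1.35 and 5.51 CPM in the GF libraries, against 2.14, 1.71 and 1.66 CPM in the CV libraries (2.13, edgeR adjusted p = 0.00385). Their transcription factor gene PHOX2A had 15, 4.61 and 16.3 CPM in the GF libraries, against 4.58, 8.1 and 8.11 CPM in the CV libraries (0.95, edgeR adjusted p = 0.0121). In both genes GF replicate 2 lay within or below the CV range. In all, 3 of 10 chromaffin markers were called higher, beside 2.48% of all genes. The part of nervous tissue in the other differences of GF replicates 1 and 3 was not tested.

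Exocrine pancreas genes went the other way. Over 6 libraries 29 of 31 were lower in GF (median −0.42, 8 without overlap, beside 7.87% of all genes), and over 4 libraries all 31 were lower and 23 were called, beside 1.95% (median −0.86). Summed over the list, the level was 68674, 116544 and 54529 CPM in the GF libraries, against 99965, 106993 and 114252 CPM in the CV libraries. GF replicate 2 lay at the top of this range and the other GF libraries below every CV library. Trypsin gene prss1 had 10144, 13345 and 7698 CPM in the GF libraries, against 13692, 16262 and 16566 CPM in the CV libraries (−0.88, edgeR adjusted p = 0.00821), and chymotrypsin gene ctrb.1 had 10716, 16721 and 8344 CPM in the GF libraries, against 17369, 17762 and 18609 CPM in the CV libraries (−0.93, edgeR adjusted p = 0.00539). For prss1 and ctrb.1 every GF value lay below every CV value, but GF replicate 2 came close to the lowest CV library. In a pair of elastase genes all 3 GF libraries lay further below the CV libraries. The gene cela1.5 had 31.9, 27.8 and 28.4 CPM in the GF libraries, against 55.8, 51.2 and 62.5 CPM in the CV libraries. Over 6 libraries its difference was −0.94 (SE 0.15, edgeR adjusted p = 0.405, DESeq2 adjusted p = 0.000228). The gene cela1.3 had 188, 204 and 141 CPM in the GF libraries, against 365, 334 and 462 CPM in the CV libraries. Over 6 libraries its difference was −1.12 (SE 0.21, edgeR adjusted p = 0.411, DESeq2 adjusted p = 0.000976). RBPJL, an acinar transcription factor gene, had 6.22, 6.15 and 3.88 CPM in the GF libraries, against 16.4, 8.71 and 9.94 CPM in the CV libraries, also without overlap (−0.89, edgeR adjusted p = 0.0829). The amount of pancreas dissected with each kidney and the activity of its acinar genes cannot be told apart from these values.

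The filtering and transporting parts of the kidney gave few calls. Tubule markers were higher in 30 of 39 (median 0.22, and 0.21 over 4 libraries), with 1 called higher, a share near the 2.48% of all genes. It was SLC12A1, the salt transporter of the thick ascending limb in mammals, with 58.6, 20 and 61.1 CPM in the GF libraries, against 61.9, 38.9 and 46.4 CPM in the CV libraries, whose groups overlapped over 6 libraries (−0.075, and 0.49 over 4, edgeR adjusted p = 0.0489). The sulfate transporter gene SLC13A1 had 27, 69.9 and 22 CPM in the GF libraries, against 7.46, 13.9 and 21 CPM in the CV libraries, without overlap and highest in GF replicate 2 (1.49, SE 0.52, and 0.49, edgeR adjusted p = 0.209). Among 11 podocyte markers the median was 0.24 over 6 and 0.13 over 4 libraries, and 1 was called lower, beside 1.95% of all genes. It was podxl, the sialomucin podocalyxin gene, with 177, 289 and 187 CPM in the GF libraries, against 170.3, 260.3 and 245 CPM in the CV libraries, again with overlap (−0.049, and −0.47, edgeR adjusted p = 0.0374).

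Some lists changed sign without the 2 outlying libraries. Liver markers had a median of 0.25 over 6 libraries and −0.28 over 4, intestine markers 0.43 and −0.27, and proliferation genes −0.094 and 0.14. GF replicate 2 held 1759 CPM of intestine markers, beside 505 to 752 CPM in the other 5 libraries. Of the 35 lists, those with the same sign and a median beyond 0.3 on the log2 scale in both fits were the interferon, antigen presentation, immediate early, glucocorticoid and exocrine pancreas lists on the lower side, and the erythroid, thrombocyte, multiciliated, chromaffin, endothelium, matrix and neuron lists on the higher side. The antigen presentation list passed narrowly, at −0.31 over 4 libraries, and its median was −0.20 with only CV replicate 1 left out.

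**Figure D5:**
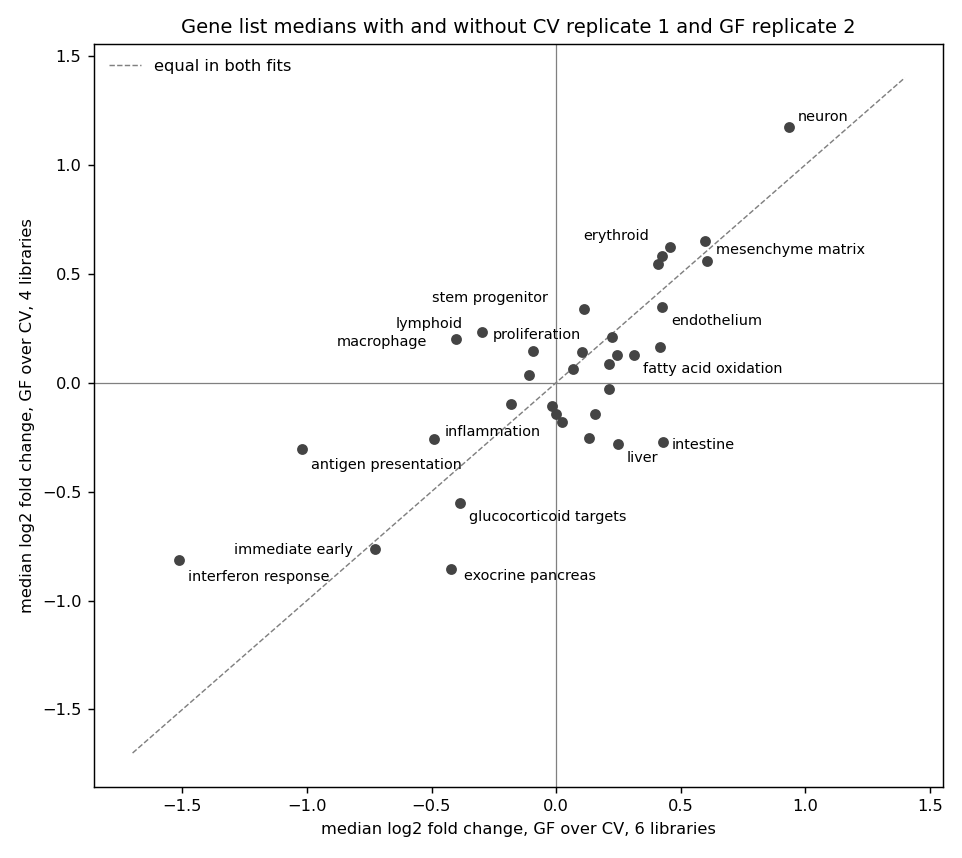
Median log2 fold change (GF over CV) of each gene list over 6 libraries (x axis) and over 4 libraries without CV replicate 1 and GF replicate 2 (y axis), 1 point per list with at least 10 measured genes and a dashed line where both are equal. The interferon list lies lowest over 6 libraries (−1.51) and the neuron list highest in both fits, while the macrophage, lymphoid, liver and intestine lists fall in quadrants of opposite sign.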

How the data were processed

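RNA of dissected kidneys was sequenced in 3 GF and 3 CV libraries. The values are the authors' deposited counts, whole reads per gene. Per the submitters' processing notes, STAR 2.7.9a was used with build GRCz11, together with featureCounts from Subread 2.0.1, FastQC 0.11.9 and Trim Galore 0.6.7. No source used here gives the annotation release, the strand setting or how multi-mapped reads were counted, so overlapping genes and close paralogs are uncertain. Of 32520 identifiers 29201 had a symbol in the name table, and 6136 shared one, so such genes are printed with their identifier. No sequence or coordinates are printed, since no sequence table was used here.

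Counts were tested with edgeR 4.0.16 (TMM factors, filterByExpr, robust quasi-likelihood F-test, no block) in R 4.3.3. The Benjamini-Hochberg adjustment ran over all genes tested. The SE of a log2 fold change is its size over the root of the F statistic. DESeq2 1.42.0 and voom of limma 3.58.1 were alternatives. The edgeR, DESeq2 and voom fits over 6 libraries and the edgeR and DESeq2 fits over 4 were also run on simulated counts. The other scalings and filters, the block, the fits with a replicate left out and the list medians were not. Levels are CPM computed from the counts. Library pairs within a group differed beyond sampling noise (chi-square per degree of freedom at least 16.5), so none was counted as a repeat.

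The 35 gene lists come from textbook knowledge. The members, lists and the 4-library fit were chosen with earlier results of these data known, so lists are described by counts and medians without a test. Named genes were the 12 largest changes in each direction among genes called over 4 libraries that did not overlap over 6 and had at least 5 CPM in the higher group, the 8 smallest p in each direction over 6 libraries, up to 4 members with the smallest p in each list, and sentinel genes; part of them is printed. Outside this rule, chosen after their values were seen, are BHLHE40, caspb, CMPK2, CPT1B, ctrb.1, DDIT4, DHX58, ELAVL3, FBXO32, hbae3, IER5, IFIH1, irf1b, irf3, IRF7, irf9, irg1l, isg15, klf2b, krt4, LPIN1, LUM, mhc1zba, mxc, mxe, NR3C1, parp14rs1 (plotted only), PCK1, PER3, PHOX2A, podxl, POSTN, PPARA, prss1, PSMD1, PSME4, REL, SLC12A1, stat2 and ucp3. Samples of the chd8-/- kidney group entered no test. Results for some genes are not reported here.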

Additional observations from a re-analysis of the deposited data

How the results depend on the processing

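Over 6 libraries the edgeR count of called genes was 0 with TMM, RLE or no normalization factors, with a stricter filter and in voom. It was 176 in DESeq2, 1 without a low count filter and 944 over 4 libraries. Leaving out each replicate in turn gave 0 calls each time, with 1077 to 2594 genes at an unadjusted p under 0.05. No pairing by replicate number was seen. Same-numbered GF and CV libraries had correlations of their deviations of −0.054, −0.12 and 0.0006, beside −0.0945 to 0.12 between other numbers. With 3 libraries in each group, 1 of them outlying, these values cannot exclude pairing. With the replicate number as a block the count was 0, with 1293 genes at an unadjusted p under 0.05. Over 4 libraries the count of 944 was 1119 in DESeq2 and 1226 with library size only. It ran from 304 to 1554 when each of the 4 libraries was left out, alternatives added after the data were seen, in which a lone library is assumed to vary like the others. The fewest calls came without a GF library (328 without GF replicate 1, 304 without GF replicate 3).

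All 36 list medians, the proteasome group included, kept their value within the spread between libraries in DESeq2, voom, both other scalings, both filters and the block, and 11 moved beyond it over 4 libraries. With single libraries left out, 6, 3 and 2 medians moved without CV replicates 1, 2 and 3, and 1, 4 and 2 without GF replicates 1, 2 and 3, and 20 of the 36 moved under at least 1 alternative. Directions of 14 of the 112 named genes reversed. EdgeR called no gene over 6 libraries, so none of the 14 was called there. Second genes of the symbols MPEG1 and PER1 are outside this count. MPEG1 (gene ENSDARG00000055290) also reversed, from −0.66 over 6 libraries to 0.46 over 4. PER1 (gene ENSDARG00000056885) was −0.076 over 6 and −0.42 over 4. Over 6 libraries the log2 fold changes of the 14 genes were BHLHE40 −0.064, caspb −0.094, CHD8 −0.076, il1b −0.404, irg1l −4.333, krt4 0.247, NR3C1 0.062, PER1 (gene ENSDARG00000012499) −0.04, PER3 0.429, podxl −0.049, RUNX1 0.167, SAA2 −0.211, SLC12A1 −0.075 and SPI1 −0.329. Over 4 libraries the reversed values were 0.856 for caspb, 0.09 for CHD8, 0.764 for irg1l, −0.167 for krt4, −0.746 for PER3, 0.487 for SLC12A1 and 0.512 for SPI1. In DESeq2 over 4 libraries they were 0.851 for caspb, 0.084 for CHD8, 0.759 for irg1l, −0.172 for krt4, −0.752 for PER3, 0.482 for SLC12A1 and 0.506 for SPI1. With library size only over 4 libraries they were 1.014 for caspb, 0.246 for CHD8, 0.926 for irg1l, −0.008 for krt4, −0.592 for PER3, 0.64 for SLC12A1 and 0.671 for SPI1. In voom over 6 libraries they were 0.069 for BHLHE40, 0.319 for caspb and 0.77 for PER1. With library size only over 6 libraries it was 0.051 for PER1. With the replicate block they were 0.066 for BHLHE40, 0.371 for caspb and 0.605 for PER1. With each replicate left out in turn, values ran from −0.427 to 0.176 for BHLHE40, −0.476 to 1.188 for caspb, −0.198 to 0.133 for CHD8, −2.057 to 0.977 for il1b, −4.907 to 0.811 for irg1l, −0.257 to 0.645 for krt4, −0.008 to 0.11 for NR3C1, −0.588 to 0.369 for PER1, −0.247 to 0.867 for PER3, −0.308 to 0.074 for podxl, −0.165 to 0.558 for RUNX1, −1.035 to 0.559 for SAA2, −0.317 to 0.285 for SLC12A1 and −0.614 to 0.415 for SPI1. The cause was not tested.

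At 27291597 to 30502058 counts per library, 3 counts are about 0.109 CPM, so differences of genes near that level, such as the GF values of RSAD2, CMPK2 and mxb, are imprecise.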

Other observations

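Proteasome genes, chosen as a group after the values were seen and given without a test, were lower in GF in 55 of 57 measured genes over 6 libraries, with a median log2 fold change of −0.56. Over 4 libraries 52 of 55 were lower (median −0.32), and 8 were called lower by edgeR, beside 1.95% of all genes, and 0 higher. The group shares members with the antigen presentation list, PSME1 and PSME2 among them, and PSME1 is among the 8 called. PSME4 (gene ENSDARG00000087911), the activator subunit PA200, had 131, 79.1 and 156 CPM in the GF libraries, against 242, 280.4 and 243 CPM in the CV libraries (−1.06, SE 0.25, and −0.87 over 4 libraries, edgeR adjusted p = 0.00328). PSMD1, a scaffold subunit of the regulatory particle, had 214, 219.7 and 219 CPM in the GF libraries, against 389, 331 and 282 CPM in the CV libraries (−0.62, SE 0.17, and −0.50 over 4 libraries, edgeR adjusted p = 0.0389). GF values of PSMD1 and of this PSME4 gene lay below every CV value. Another tested gene with the PSME4 symbol is not given here. The summed level of the group was 2475, 3278 and 2608 CPM in the GF libraries, against 5754, 3636 and 3126 CPM in the CV libraries, with CV replicate 1 highest, and the part of that library's immune genes in the 6-library median was not tested.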
